A study of Bos taurus with 30 samples.

Results

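A total of 18475 regions of open chromatin were detected in bovine morula and in the inner cell mass (ICM) of blastocysts, but at no earlier stage and not in embryonic stem cells (ESC). They made up 11.4% of the 161497 morula regions and 76.2% of the 24237 morula regions that were new at that stage and were also found in ICM. Here they are called morula-ICM regions. A region of a stage was a merged stretch of ATAC-seq peaks that was covered in at least 2 of 3 replicate libraries, and sharing 1 bp counted as overlap. A morula-ICM region overlapped an ICM region and no region of germinal vesicle (GV) oocytes, of 2-, 4- or 8-cell embryos or of ESC. Peaks of these stages chose the regions, so their presence in morula and ICM and their absence elsewhere are given as a description. Tests used libraries of transcription-blocked embryos, which the choice did not use, and control libraries left out of a repeated choice.

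ATAC-seq marks open chromatin by the insertion of a transposase, and peaks are places where insertions pile up above the local background. The morula is the stage at which the blastomeres compact and the outer and inner cells begin to follow separate paths. The inner cells form the ICM, from which the epiblast and the primitive endoderm arise, while the outer cells form the trophectoderm. ESC are cultured cells that are derived from the ICM and kept in a pluripotent, self-renewing state by their medium.

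The study profiled 10 groups in 3 replicate libraries each, with peaks listed for every library. Control groups were GV oocytes, in vitro produced 2-cell embryos at 30 to 32 hours after insemination, 4-cell embryos at 2 days, 8-cell embryos at 3 days, morulae at 5 days, ICM isolated by immunosurgery from blastocysts at 7 days, and ESC. In the transcription-blocked embryos (TBE), 2-, 4- and 8-cell stages came from embryos kept from day 1 in medium holding 50 µg/ml of α-amanitin, which stops RNA polymerase II. Embryos meant for these stages were divided into a treated and an untreated group and cultured at the same time. Embryo libraries came from pools of at least 500 cells from separate oocyte collections, so each list is an average over embryos and over the cells in them, and a region open in few cells cannot be told apart from one weakly open in all. ESC libraries came from 50000 cells grown on mouse embryonic fibroblast feeders and separated from them by plating, and they were lines derived from ICM under inhibition of the Wnt pathway.

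The lists give no read totals, and the number of peaks per library ranged from 142231 to 207459 in morula, from 84773 to 116791 in ICM and from 39333 to 142643 in ESC. The ESC libraries thus stood apart from each other, with 39333, 142643 and 99432 peaks in replicates 1, 2 and 3. As a stand-in for depth, the background level of each library, which rises with its number of tags, was computed from the fold enrichments and p values of its own peaks. It was 0.175, 0.656 and 0.404 tags for the ESC libraries, 0.493, 0.438 and 1.06 tags for ICM, and 0.452, 0.927 and 0.716 tags for morula. ESC replicate 1 had the lowest level of these 9 libraries, and the other 2 ESC libraries lay within the range of the ICM libraries or just under it. The 8-cell TBE libraries spanned the widest range of all groups, with levels of 1.24, 3.82 and 0.347 tags and 50090 to 247513 peaks.

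Most morula-ICM regions were peaks in nearly all of the morula and ICM libraries. Peaks covered 80.6%, 98.7% and 93.8% of them in the 3 morula libraries and 83.7%, 82.1% and 93.5% in the 3 ICM libraries. All 3 morula libraries had a peak at 13509 regions (73.1%, against 69.1% of all morula regions), and all 3 ICM libraries had one at 11115 regions (60.2%, against 29.9% of all morula regions). These 4 percentages are set in part by the choice of the regions, and nothing is read from their difference. The remaining regions had peaks in 2 ICM libraries (7191 regions) or touched a peak of 1 ICM library within a longer ICM region (169 regions).

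**Figure D1:**
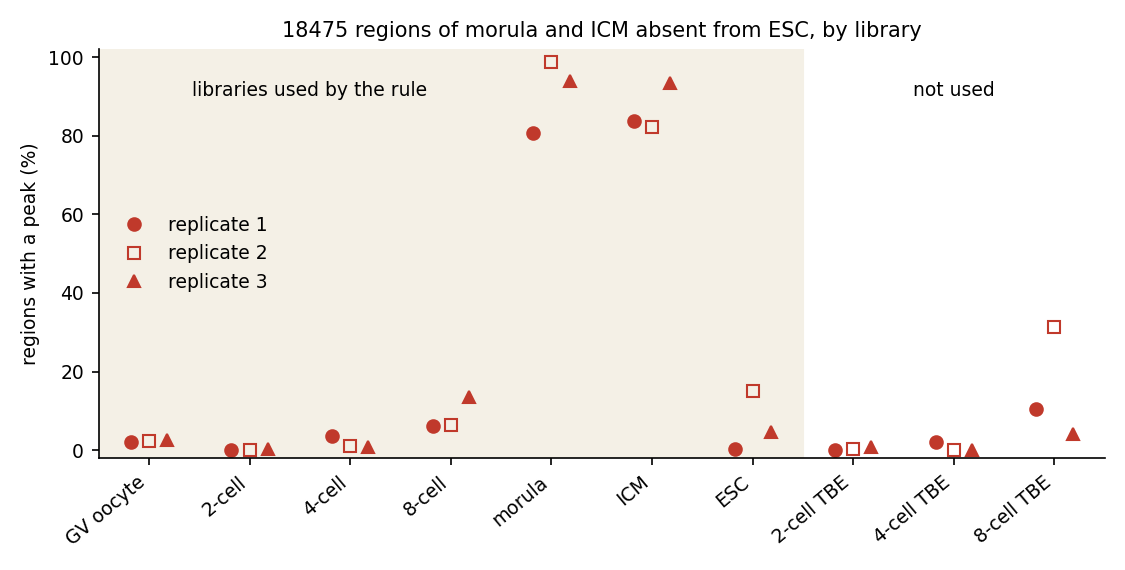
Percent of the 18475 morula-ICM regions that overlap a peak (vertical axis), for each of the 30 libraries (points, 3 replicates per group). Morula and ICM libraries lie between 80.6% and 98.7%, and of the others 8-cell TBE replicate 2 (31.4%) and ESC replicate 2 (15.1%) lie highest.

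Single libraries of the other stages also had peaks at some of these regions, since the choice asked for 2 libraries to call a region present. In ESC, peaks were found at 0.379%, 15.1% and 4.71% of the regions in replicates 1, 2 and 3, and the libraries with longer lists had more of them. In 8-cell embryos they were found at 6.26%, 6.33% and 13.6% of the regions. GV oocytes had 2.11% to 2.55%, 4-cell embryos 0.687% to 3.68% and 2-cell embryos 0.0325% to 0.390%. Of the 18475 regions, 14785 (80.0%, against 60.9% of all morula regions) had no peak in any ESC library, 3646 had a peak in 1 and 44 had peaks in 2 at different places within the region. A stricter choice, with no peak in any of the 15 control libraries outside morula and ICM, kept 10311 regions (55.8%). The fold of a region in a library was the largest among the peaks of that library that overlapped it, and medians are over regions. For a stage, it was averaged over the libraries with a peak. The regions with a peak in 1 ESC library had a median fold enrichment of 4.49 in morula and 4.28 in ICM, and those with none had 4.49 and 4.25. The peaks in that single ESC library had a median fold of 3.58. Just outside the limit, the 192 otherwise alike regions that overlapped an ESC region but had a peak in 1 ESC library had medians of 4.21 in morula, 4.08 in ICM and 3.75 in ESC. On the ICM side, the 10558 morula-only regions with a peak in 1 ICM library had medians of 4.05 in morula and 3.48 in ICM.

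To measure the regions in libraries that had not chosen them, replicate 1, 2 or 3 of every stage was left out in turn, the regions were defined again from peaks shared by the other 2 replicates, and the library left out was examined. The 3 rounds gave 15545, 15178 and 14738 regions, of which 84.3%, 72.5% and 69.0% overlapped a region of the full set. Of the full set, 8682 regions (47.0%) were found in all 3 rounds, 210 in 2, 7778 in 1 and 1805 (9.77%) in none. The regions found in fewer than 3 rounds needed the peaks of a particular pair of replicates at some stage. In a round, absence from a stage meant that no region there had peaks of both remaining libraries, so 1 of them could still have a peak. The rounds share libraries and are not fully independent of one another.

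The regions were found again in most cases in the ICM library that had been left out and much less often in the ESC library. ICM replicates 1, 2 and 3 had peaks at 80.4%, 79.5% and 91.5% of the regions. ESC replicates 1, 2 and 3 had peaks at 2.12%, 28.7% and 19.0%. Every ICM library lay above every ESC library. Each round had chosen regions with an ICM region and without an ESC region, so libraries that repeat each other give this order by choice. The values show how well the choice was repeated in a library left out. The means were 83.8% ± 6.70 for ICM and 16.6% ± 13.5 for ESC (SD, n = 3 each), a difference of 67.2 percentage points (two-sided exact permutation test, p = 0.100, the smallest value that 3 libraries against 3 allow). Among morula-born regions shared with both ICM and ESC, chosen in the same rounds, the ESC library left out had peaks at 47.5%, 97.9% and 90.6%. These shares rest on unlike sets of 5649, 2046 and 2429 regions. With ESC replicate 2 or 3 left out, a region needed a peak in ESC replicate 1. Shared regions with peaks in all 3 ESC libraries had a median ESC fold of 5.20, against 4.14 for those with 2. ESC replicates 2 and 3 thus found nearly all of the regions that replicate 1 had in common with the other library. ESC replicate 1 missed about as many of its set as it found, and the 3 shares do not compare sensitivity. Without replicate 1, the ICM to ESC difference for the morula-ICM regions was 61.6 points.

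**Figure D2:**
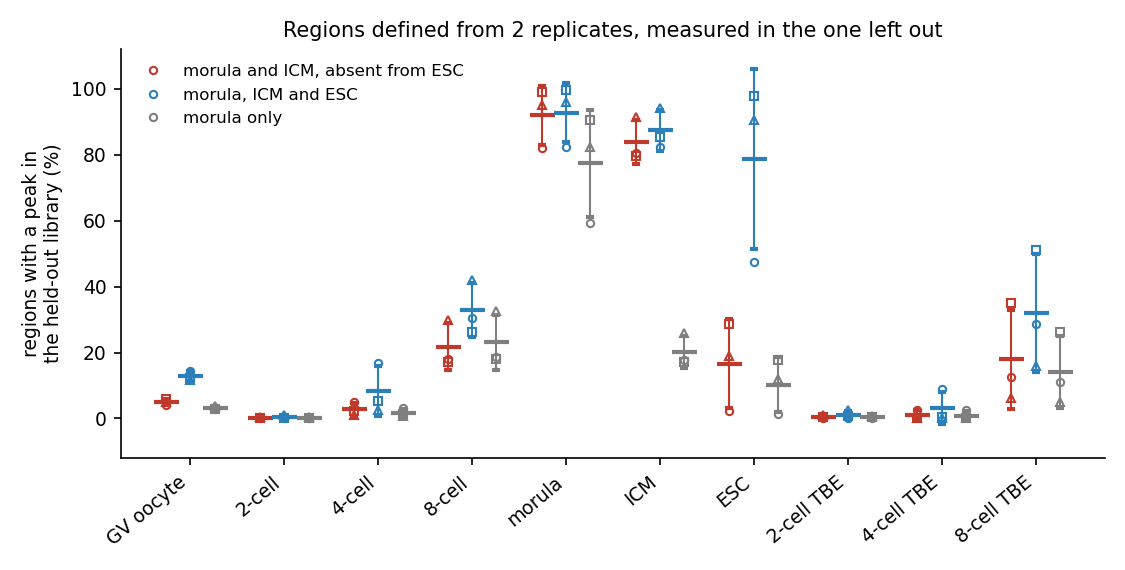
Percent of regions with a peak in the library that had been left out of their definition (vertical axis) for 3 sets of morula-born regions in 10 groups; small symbols are the 3 libraries, and the wide mark and bars give mean and SD. For the morula-ICM regions, ICM (79.5% to 91.5%) and ESC (2.12% to 28.7%) do not overlap, while 8-cell TBE (6.23% to 35.0%) and 8-cell control (17.2% to 29.9%) do.

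In the morula libraries left out, 81.9%, 99.0% and 95.2% of the regions had a peak, a mean of 92.0% ± 8.96 (SD, n = 3). This was 8.22 points above the ICM mean, but the ranges of the 2 groups overlapped (exact permutation test, p = 0.200), and the difference changed sign, to -1.96 points, when the libraries were cut to equal numbers of top peaks. The 8-cell control libraries left out had a peak at 17.9%, 17.2% and 29.9% of the regions (21.7% ± 7.14, SD, n = 3). A region of a round could have a peak in 1 of the 2 other 8-cell libraries. The choice from all 3 replicates was stricter on absence, and its regions had peaks at 6.26%, 6.33% and 13.6% in these libraries. The 4-cell libraries had 1.19% to 5.05%, the GV oocytes 4.16% to 5.81% and the 2-cell embryos 0.0579% to 0.509%. For comparison, the ICM library left out had peaks at 17.2% to 25.8% of the morula-only regions, which were defined by overlapping neither ICM nor ESC.

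The strength of the regions was alike in morula and ICM. Over the regions with a peak, the median fold enrichment was 4.36, 4.72 and 4.46 in the 3 morula libraries and 4.44, 4.13 and 4.29 in the 3 ICM libraries. At the 8850 regions with a peak in all 6 libraries, the median log2 ratio of ICM to morula fold was -0.07, with 41.2% of the regions higher in ICM. Over all 43772 morula regions with peaks in these 6 libraries the median was -0.15, with 30.7% higher in ICM. All 3 ICM folds lay above all 3 morula folds at 9.37% of the 8850 regions, and all 3 morula folds lay above all 3 ICM folds at 18.6%. For the 2895 regions shared with ICM and ESC the corresponding shares were 9.43% and 16.6%. The fold enrichment is relative to the local background of the same library, so these are differences in contrast and not in the number of open alleles. Averaged over the libraries with a peak, the morula-ICM regions had a median fold of 4.49 in morula, the shared regions 4.68, the morula-only regions 3.91 and all morula regions 4.43. The values for morula-only regions are lower in part by choice, since a stronger peak is more easily found in 2 ICM libraries.

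The clearest members were the 4809 regions (26.0%, against 2.98% of all morula regions, a count that the choice fixes since every such region belongs to the set) that had a peak in all 3 morula and all 3 ICM libraries and in none of the 15 other control libraries. Their median fold over the 6 libraries was 4.86 and their 95th percentile 7.04. Their median width was 667 bp, and 42.3% of them had a higher mean fold in ICM than in morula. The 10 with the largest mean fold, between 9.13 and 10.7, were 360 to 578 bp wide, narrower than the median of the set. Of the 10, 3 lay on chromosome X, which held 3.19% of all morula-ICM regions. This count of few regions was not tested, and nothing is read from it.

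Coordinates are those of the files, on bovine assembly ARS-UCD1.2, and the genes beside the regions were not analysed here. The strongest region, chr16:62969163-62969593, was 431 bp wide and had folds of 13.5, 14.0 and 11.8 in the 3 morula libraries. In ICM its folds were 9.60, 8.37 and 7.16. The lowest morula value lay above the highest ICM value, and no TBE library had a peak there. The next in rank, chr29:10578712-10579071, had 11.8, 13.6 and 10.5 in morula and 9.34, 7.40 and 7.19 in ICM, again with no overlap between the 2 stages. At chr13:69118052-69118477 morula had 10.1, 11.9 and 11.9 and ICM had 7.61, 9.06 and 9.01. This was the third region in rank order, and morula lay above ICM there too.

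The fourth region went the other way. At chr22:10407327-10407695 the ICM folds were 9.95, 10.7 and 11.5. Its morula folds were 5.42, 12.3 and 8.14, so that the 2 stages overlapped through morula replicate 2. It was also the only one of the 10 with a peak in 2 TBE libraries, with folds of 4.74 and 3.41 in 8-cell TBE replicates 1 and 2. At chr26:36859721-36860095, morula had 5.96, 13.0 and 11.5 and ICM 8.35, 6.99 and 10.1, and morula replicate 1 lay below all ICM values. Morula replicate 1 was the lowest morula value at both of these regions.

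The 3 regions on chromosome X did not share one pattern. At chrX:20634048-20634592 the folds were 7.32, 11.2 and 9.10 in morula and 8.13, 8.95 and 10.9 in ICM, with no separation. At chrX:59038082-59038529 they were 8.77, 10.8 and 9.68 in morula and 6.26, 8.04 and 11.7 in ICM. At chrX:107926771-107927348 they were 8.20, 9.10 and 8.68 in morula and 8.58, 9.68 and 10.6 in ICM. The second of the 3 had a weak peak in 8-cell TBE replicate 2, with a fold of 2.42. At chr6:37260455-37260959 morula had 9.81, 11.8 and 9.34 and ICM 6.36, 8.99 and 8.81, with a fold of 2.30 in 8-cell TBE replicate 2. The last of the 10, chr4:99114649-99115090, had 9.95, 11.7 and 10.1 in morula and 7.51, 7.10 and 8.43 in ICM. In 5 of the 10 regions all morula folds lay above all ICM folds, and in 0 of them did the reverse hold.

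**Figure D3:**
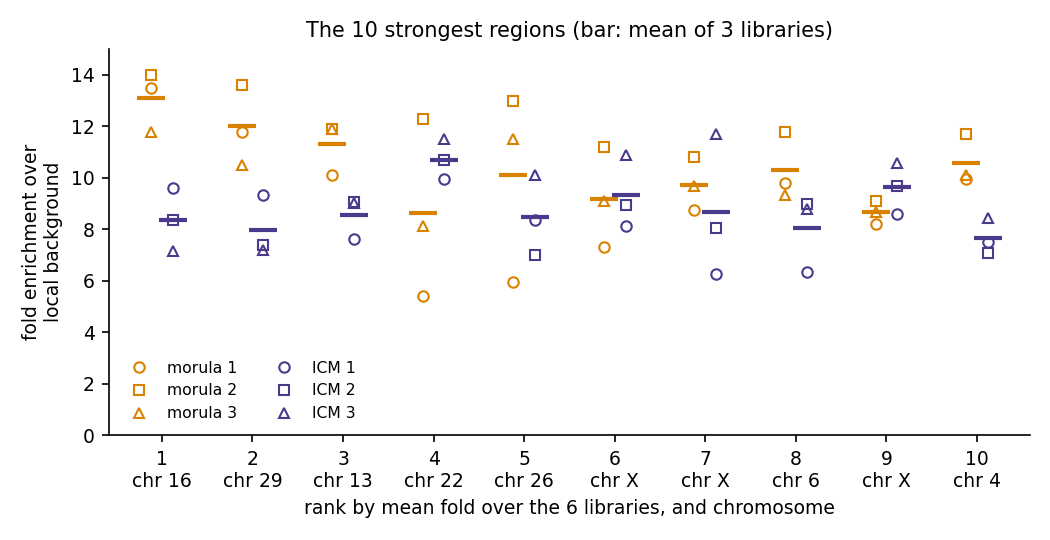
Fold enrichment over the local background (vertical axis) of the 10 morula-ICM regions with the largest mean fold among those with peaks in all 6 morula and ICM libraries and no other control library; each symbol is a library and each bar a mean of 3. Morula lies wholly above ICM at ranks 1, 2, 3, 8 and 10, and ICM has the higher mean at ranks 4, 6 and 9.

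The morula-ICM regions covered 14.3 Mb in total and had a median width of 625 bp (interquartile range 382 to 1036 bp), and 26.8% were over 1000 bp. The median was 632 bp for the regions shared with ICM and ESC, 436 bp for the morula-only regions and 613 bp for all morula regions. Wider regions more often had peaks in all of the ICM libraries. The regions with peaks in all 3 ICM libraries had a median width of 670 bp, against 562 bp for those with 2. Of the regions 200 to 400 bp wide, 30.2% had peaks in all 6 morula and ICM libraries, and of those over 1500 bp, 63.5% did. Peaks of ESC replicate 2 were found at 14.7% of the narrowest and 20.5% of the widest regions, and peaks of 8-cell TBE replicate 2 at 24.5% and 46.5%. In the libraries with the shortest lists of these groups, the share was 0.550% in the narrowest and 0.364% in the widest regions for ESC replicate 1, and 4.30% and 4.61% for 8-cell TBE replicate 3.

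**Figure D4:**
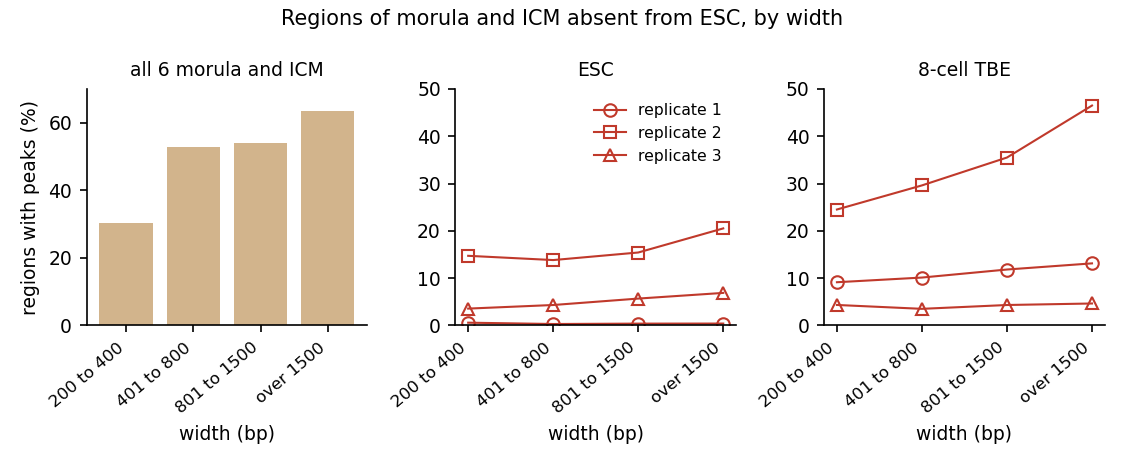
Percent of the morula-ICM regions with peaks (vertical axes, with ranges that differ between panels) in 4 classes of width, for all 6 morula and ICM libraries together (bars), the 3 ESC libraries and the 3 8-cell TBE libraries (symbols). From the narrowest to the widest class the share goes from 30.2% to 63.5% for the 6 libraries and from 24.5% to 46.5% for 8-cell TBE replicate 2, while ESC replicate 1 stays at or below 0.550%.

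The 3 widest regions were weaker than the strongest ones, which had been chosen by their fold, so nothing is read from that. In width order, the mean folds of the widest regions in morula were 4.27, 5.11 and 3.51. The median of all morula-ICM regions there was 4.49. In ICM the widest regions had mean folds of 5.29, 5.19 and 4.11, and the median of the set was 4.25. The widest of all, chr2:133762850-133766615, spanned 3766 bp and had folds of 4.52, 3.86 and 4.44 in morula and 4.53, 5.62 and 5.71 in ICM. It also had peaks in 3 other control libraries, among them ESC replicate 2 with a fold of 3.85. On the same chromosome chr2:131018763-131022482 spanned 3720 bp, with folds of 5.64, 5.04 and 4.65 in morula and 4.41, 5.17 and 6.00 in ICM. The third, chr12:62351999-62355550, spanned 3552 bp, had folds of 3.76, 2.84 and 3.93 in morula and 4.23 and 3.99 in ICM replicates 1 and 3, and had no peak in ICM replicate 2. All 3 overlapped a peak of 8-cell TBE replicate 2, with folds of 2.16, 2.15 and 2.50.

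The regions were spread over every chromosome. On the autosomes they made up from 9.68% (chromosome 18) to 14.6% (chromosome 22) of the morula regions, and 590 of them lay on chromosome X. Set against the morula-born regions with an ICM region, the share that was absent from ESC ranged from 72.2% on chromosome 28 to 86.2% on chromosome 25, with 83.1% on chromosome 19 and 80.2% on chromosome 18. Chromosome X had 75.3%, close to the 76.3% of all autosomes. A further 55 regions lay on unplaced scaffolds. These shares have no replicate error of their own, since each region was called once from all libraries.

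The morula-ICM regions were 11.4% of the morula regions, so most neighbours are of other kinds by their numbers alone. The nearest other morula region was another morula-ICM region for 15.2% of them, a morula-only region for 29.1% and a region first open before morula for 47.4%. For the regions shared with ICM and ESC, the nearest was a morula-ICM region in 14.9%, and for all morula regions in 11.6%. The nearest to all morula regions was a morula-only region in 27.8% and a region first open before morula in 53.5%. An 8-cell region lay within 10 kb of 58.1% of the morula-ICM regions and an ESC region within 10 kb of 50.5%, at median distances of 7865 and 9870 bp. The morula-only regions had 55.9% and 47.2%. With gaps of at most 10 kb, 14482 regions (78.4%) stood alone, 3960 fell into 1832 runs of 2 to 4, and 6 runs held 5 or more. Runs were not counted for other sets, so these counts are a description. The longest run, chr15:64255394-64291911, held 7 regions in 36518 bp, which were all of the morula regions in that stretch. No ESC region and no 8-cell region lay in it, although ESC replicates 2 and 3 had 2 peaks and 1 peak there. The mean folds of its regions were 4.70 in morula and 4.65 in ICM. A run of 6 regions, chr21:59636643-59664276, likewise held no ESC region but 1 peak of ESC replicate 2, with mean folds of 4.13 and 4.72, and 4 of the 6 runs held none.

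TBE libraries addressed whether these regions, which overlapped no control region of the stages before morula, had peaks at the earlier stages when transcription was blocked. No TBE library entered the choice of the regions. At the 2-cell stage TBE peaks lay at 0.00541%, 0.368% and 0.687% of the morula-ICM regions, and at the 4-cell stage at 2.10%, 0.119% and 0.130%. At the 8-cell stage they lay at 10.6%, 31.4% and 4.04%. The order of the 8-cell TBE libraries followed their background levels of 1.24, 3.82 and 0.347 tags, and the part of depth in their spread was not tested. The median fold of the regions with such a peak was 3.20, 2.45 and 3.48, lower than in any morula or ICM library. Morula and ICM libraries had chosen the regions, and the 8-cell control libraries had medians of 3.15, 3.18 and 3.48 there.

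An 8-cell TBE region, with peaks in at least 2 of 3 libraries, was present at 2058 of the morula-ICM regions (11.1%, against 27.0% of all morula regions, of which many were already open at the 8-cell stage). Of the morula-only regions 8.93% overlapped one, and of the regions shared with ICM and ESC 22.6%. A 4-cell TBE region lay at 5 morula-ICM regions (0.0271%, against 2.23% of all morula regions) and a 2-cell TBE region at 0 (against 1.89% of all morula regions), although single 2-cell TBE libraries had peaks at 196 of them. No TBE library had a peak at 12015 of the regions (65.0%, against 52.3% of all morula regions), which is close to the 66.0% of all morula-born regions and below the 70.3% of the morula-only regions. Of the 4809 clearest regions 3611 (75.1%) had none. They were chosen without a peak in any 8-cell control library. Morula-ICM regions without such a peak had 8-cell TBE peaks at 8.18%, 28.0% and 2.82%, against 17.6%, 41.4% and 7.59% of those with one. No other set was counted under the same choice, so nothing is read from the higher share.

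Compared with control embryos of the same stage, the 8-cell TBE libraries were not separated by the test, and the values depended on which peaks were counted. For the regions of each round, 8-cell TBE replicates 1, 2 and 3 had peaks at 12.6%, 35.0% and 6.23%, and the 8-cell control libraries left out had them at 17.9%, 17.2% and 29.9%. The means were 17.9% ± 15.1 and 21.7% ± 7.14 (SD, n = 3 each), and the difference of -3.75 points was smaller than the spread within either group (exact permutation test, p = 0.700). The difference was -23.7 points in replicate 3 and 17.7 points in replicate 2, so that its sign differed between replicates. Without replicate 3 the difference was 6.21 points, and without replicate 2 it was -14.5 points. With only peaks of a fold of at least 3, every TBE library lay below every control library, and the difference was -13.9 points (exact permutation test, p = 0.100, the smallest possible). With only peaks of a −log10 q of at least 3 it was -10.7 points (exact permutation test, p = 0.200), and with equal numbers of top peaks it was 8.69 points (exact permutation test, p = 0.500). At the 4-cell stage, TBE peaks lay at 2.67%, 0.152% and 0.190% of the regions of each round, and control peaks at 5.05%, 2.17% and 1.19%. TBE lay below the control library of the same number in all 3 cases, while the ranges of the groups overlapped through TBE replicate 1, and this difference was not tested. At the 2-cell stage, TBE had 0.0193%, 0.560% and 1.15% and control 0.0579%, 0.0988% and 0.509%, also with overlapping ranges. Peaks in all 3 8-cell TBE libraries with none in any 8-cell control library were found at 180 regions (0.974%, against 0.800% of all morula regions). Among all morula-born regions the share was 1.17%, with 2.97% of the regions shared with ICM and ESC and 0.844% of the morula-only regions.

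The morula-ICM regions were less often open in TBE than the regions shared with ICM and ESC. In 8-cell TBE replicates 1, 2 and 3 the shared regions had peaks at 21.3%, 46.5% and 11.1%, against the 10.6%, 31.4% and 4.04% of the morula-ICM regions. In 4-cell TBE they had 5.50%, 0.278% and 0.174%, against 2.10%, 0.119% and 0.130%, and in 2-cell TBE 0.0694%, 0.694% and 1.34%, against 0.00541%, 0.368% and 0.687%. The share was lower for the morula-ICM regions in 9 of 9 libraries, with a mean difference of -4.15 points (exact two-sided sign-flip permutation test over libraries, p = 0.00391, the smallest value that 9 libraries allow). Both sets were measured in the same library, so its depth was the same for both. In 8-cell TBE the share of the morula-ICM regions was 0.366 to 0.677 times that of the shared regions. The same order was seen without α-amanitin. The shared regions had peaks at 9.58%, 9.11% and 17.8% in the 8-cell control libraries, against 6.26%, 6.33% and 13.6% of the morula-ICM regions. They had 1.02% to 10.0% in 4-cell control embryos and 4.48% to 6.16% in GV oocytes, against 0.687% to 3.68% and 2.11% to 2.55%. The choice of both sets had used these control libraries, so their values are given as a description. In these values the order of the sets was not confined to blocked embryos. Whether the difference was larger in blocked embryos was not tested. With only regions that had no peak in any GV oocyte, 2-cell, 4-cell or 8-cell control library, the mean difference was smaller, -1.96 points, and still past the threshold (p = 0.00781, exact test). The 8-cell TBE libraries alone give -10.9 points, for which 3 libraries cannot reach the threshold (p = 0.250, exact test).

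**Figure D5:**
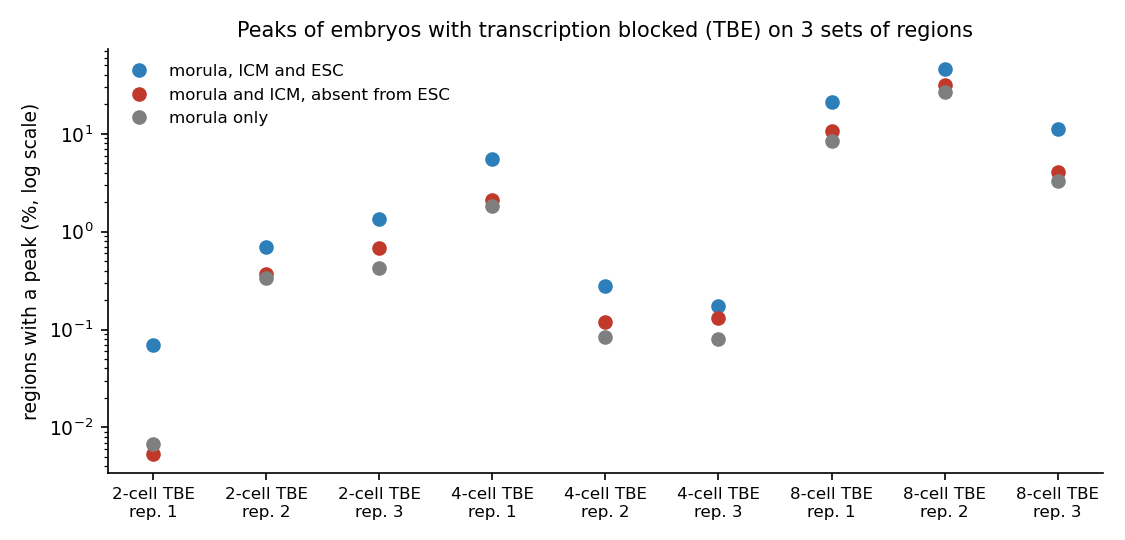
Percent of regions with a peak (vertical axis, log scale) in each of the 9 TBE libraries for 3 sets of morula-born regions. The regions shared with ICM and ESC lie highest in all 9 libraries, and the morula-ICM regions lie above the morula-only regions in 8 of 9.

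They were slightly more often open in TBE than the morula-only regions. The morula-only regions had peaks at 8.42%, 26.5% and 3.29% in 8-cell TBE, 1.81%, 0.0837% and 0.0792% in 4-cell TBE and 0.00679%, 0.335% and 0.425% in 2-cell TBE. The morula-ICM regions were higher in 8 of 9 libraries, by 0.950 points on average (exact sign-flip permutation test, p = 0.00781). The exception, 2-cell TBE replicate 1, rested on 1 and 3 regions. The difference was 0.588 points without replicate 2 and 1.25 points without replicate 3, neither past the threshold (p = 0.0625 for both, exact test), and 0.254 points by base pairs covered (p = 0.0625, exact test). In regions 500 to 1000 bp wide, where the 2 sets are closer in width, the difference was 0.642 points (p = 0.0312, exact test).

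Regions that were open in an 8-cell control library were also more often open in 8-cell TBE. Of the 4746 morula-ICM regions with a peak in 1 or 2 of the 8-cell control libraries, 17.6%, 41.4% and 7.59% had a peak in 8-cell TBE replicates 1, 2 and 3. Of the 13729 with no such peak, 8.18%, 28.0% and 2.82% had one. The shared regions with no peak in an 8-cell control library had 16.1%, 40.1% and 7.65%, and the morula-only regions 7.12%, 24.5% and 2.56%. The order of the 3 sets was therefore the same among regions without a detectable peak in 8-cell control embryos.

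A few morula-ICM regions had strong peaks in all 3 8-cell TBE libraries. Of these, 180 had no peak in any 8-cell control library, and the 3 of the 180 with the largest mean TBE fold are given as examples. They were singled out after their values had been seen. At chr8:112015436-112015823 the 8-cell TBE folds were 6.05, 4.50 and 5.63, 4-cell TBE replicate 1 had 4.18, and morula had 3.03, 8.60 and 5.34. At chr20:44772106-44772385 the 8-cell TBE folds were 5.69, 5.89 and 3.86, and ICM replicate 2 and morula replicate 1 had no peak. At chr15:29087139-29087420 they were 5.20, 4.34 and 4.65, and ESC replicate 2 had a peak with a fold of 4.01. Each of the 3 also had a peak in 1 or 2 of the 15 control libraries outside morula and ICM.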

How the data were processed

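ATAC-seq peaks were analysed in 30 libraries, 3 replicates of 10 groups. Per the methods of the study and the submitters' processing notes, the authors used Trim Galore (cutadapt 0.4.0) for trimming and BWA 0.7.17 for alignment to ARS-UCD1.2. Duplicates were taken out with PicardTools, and reads of low mapping quality or from mitochondria with SAMtools 1.7. Broad peaks were called by MACS2 2.1.1 with a q value of 0.05. Each deposited list belongs to 1 replicate. The fold enrichment (a ratio of tag pileup to local background) and the −log10 of the p and q values are deposited as means over each peak. The deposited score, a rescaled q value, was not used. Some peaks have a mean −log10 q near 1.01, below the limit at which they were called.

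Regions, overlaps and tests were computed in Python 3.11.15 with numpy 2.4.6 and pandas 2.3.3, and the functions were tested on simulated data (0 mismatches in 100 trials, and 4 of 4 background levels recovered). Read depth is unknown, since the lists hold no read counts, so no counting intervals are given. The background level was solved from peaks whose fold and p value are those of a whole-number pileup, where at least 20 peaks matched one level (within 0.0001 in −log10 p), which held for 29 of 30 libraries. Named regions were the 10 with the largest mean fold among those with peaks in all morula and ICM and no other control library, and the 3 widest. Comparisons used exact permutation tests over libraries, never over regions. The regions, lists and tests were chosen with earlier results of these data known. By the methods of the study, a collection gave both TBE and control embryos, but the labels do not say which replicate numbers share one. Same-numbered libraries did not deviate together (correlations from -0.0305 to 0.0206 over morula regions), which does not show that their collections differed. Replicates were not paired in the main tests. Genes, genic shares, markers, motifs and sequences of the regions were not analysed here.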

Additional observations from a re-analysis of the deposited data

How the results depend on the processing

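Of 77 alternatives computed over 7 results, 64 kept the direction and the side of the threshold or stayed within 1.5 times the count or within the spread of the width. No alternative of the ICM to ESC, morula to ICM and 8-cell TBE to control differences could cross the threshold with so few libraries. The 10, 9 and 8 of their alternatives counted among the 64 show only that the sign held. The number of morula-ICM regions fell to 10311 where a peak in any single excluded library counted, to 8897 where morula and ICM each needed all 3 replicates and to 5026 with the 39333 top peaks of each 8-cell, morula, ICM and ESC library, the last by construction. Leaving out a replicate gave 14738 to 15545 regions. The median width was 666 bp with peaks of a −log10 q of at least 3, and 577 to 639 bp with a replicate left out.

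The ICM to ESC difference was 61.6 to 75.4 points with a replicate left out. Morula minus ICM was 2.58 to 11.6 points and turned to -1.96 with equal numbers of peaks. 8-cell TBE minus control was -14.5 to 6.21 points (6.21 without replicate 3) and turned to 8.69 with equal numbers of peaks; the cause was not tested. With the replicate number as a block, these 3 differences stay at 67.2, 8.22 and -3.75 points, with exact p of 0.250, 0.250 and 0.750, and 3 pairs cannot go below 0.250. The TBE difference from the shared regions was -4.95 to -3.64 points with a replicate left out and -10.9 points in 8-cell TBE alone. The TBE difference from morula-only regions was 0.588 to 1.25 points, 2.63 points in 8-cell TBE alone and 0.254 by base pairs. By construction 3 libraries cannot pass the threshold, and the cause of the other lost calls was not tested. Without 8-cell TBE replicate 2, the deepest library, the differences were -2.79 and 0.450 points. The alternatives by early peaks, by width, by single ESC libraries and without that library were chosen after seeing the data. Planned counts of genic regions, motifs and listed genes were not run. Depth limits what absence means, most of all in ESC replicate 1.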
